A study of Mus musculus with 16 samples.

Results

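In 16 mouse rhabdoid tumors, 9 genes of skeletal muscle were followed, out of 24982 genes in the count table. Of these, 6 encode structural proteins or enzymes of the mature fibre (Acta1, Myh1, Myh2, Myh4, Ckm and Tnnt3), and 3 encode myogenic transcription factors (Myod1, Myog and Myf5). They were chosen by their measured TPM and counts in the Myc tumors at different sites, so differences by site are given as a description without a test. All 9 genes had at least 1 count in some tumor and entered every edgeR fit of the main analysis.

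Skeletal muscle fibres form when progenitors that express Pax3 or Pax7 switch on Myf5 and Myod1, exit the cell cycle under Myog, and fuse. The fibre then builds its contractile apparatus from skeletal actin, myosin heavy chains and troponins, and buffers its energy supply with muscle creatine kinase. Adult muscle keeps high levels of the structural genes and low levels of Myod1 and Myog, whereas developing and regenerating fibres also express the embryonic and neonatal myosins.

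Each tumor came from a different Smarcb1flox/flox;R26-CreERT2 mouse on a mixed 129/SV×C57BL/6 background, in which tamoxifen given during gestation activated a ubiquitous Cre and deleted Smarcb1. The 5 intra-CNS tumors, listed by the study as Shh, were all induced at E6 and were collected at 30 to 180 days of age. The other 11 tumors are listed as Myc. Of these, 6 lay within the skull but outside the brain parenchyma (4 induced at E8, 1 at E7 and 1 at E6, collected at 52 to 170 days), and 5 were extracranial (4 induced at E8 and 1 at E6, collected at 80 to 210 days). The extracranial tumors were labelled back (43825B), jaw (43987A and R26P123), nose (43990A) and mouth (43998A), and the nose tumor stands as intracranial in the study's list of mice. Subgroup and location coincided for every Shh tumor and cannot be told apart here. Frozen brains had been sectioned and the tumor cut out with a scalpel. How the extracranial tumors were separated from the tissue around them is not stated by the study. No normal tissue was analysed. In bulk tissue, fewer cells of a type and less RNA per cell cannot be told apart.

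The tumors had 17889968 to 110177889 gene counts, so a floor of 3 counts lay between 0.0272 and 0.168 CPM (counts per 1000000 counts of the library). Smarcb1 itself was measured at 3.99 to 58.1 TPM (a level per gene length that sums to 1000000 in each tumor), and the table does not separate deleted from intact copies. The intracranial tumor R26P115 held 199516 TPM of Ttr, the transthyretin gene of the choroid plexus, and the Shh tumor 29048 held 4535 TPM of Ttr and 1971 TPM of the myelin gene Mbp.

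In mm10 coordinates, Acta1 lies on chromosome 8 (chr8:123891769-123894751) and Ckm on chromosome 7 (chr7:19404776-19422841). Tnnt3 (chr7:142498836-142516009) is 54.4 kb from Tnni2, another gene of the fast troponin complex. Myh2, Myh1 and Myh4 follow each other on chromosome 11 between the embryonic gene Myh3 and the neonatal gene Myh8, with 2.53 kb between Myh2 and Myh1 and 13.5 kb between Myh1 and Myh4. Of the myogenic factors, Myod1 lies on chr7:46376474-46379099, Myog on chr1:134289989-134292548 and Myf5 on chr10:107482908-107486134, the last 6.72 kb from its paralog Myf6.

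The promoters of 4 structural genes that were highest in the same tumor, R26P123, and of Myog, the factor that was above the floor in 3 of the tumors richest in them, are shown as the 250 bases before the RefSeq transcript start in GRCm38.p6, the assembly of mm10. RefSeq promoters matched 7 of the 9 genes, and Tnnt3 and Myod1 had no entry. Capitals mark E-boxes (CANNTG, the core bound by myogenic factors), CArG boxes (the site of serum response factor) and MEF2 sites, searched on both strands.
Acta1, chr8:123894776-123895025, minus strand: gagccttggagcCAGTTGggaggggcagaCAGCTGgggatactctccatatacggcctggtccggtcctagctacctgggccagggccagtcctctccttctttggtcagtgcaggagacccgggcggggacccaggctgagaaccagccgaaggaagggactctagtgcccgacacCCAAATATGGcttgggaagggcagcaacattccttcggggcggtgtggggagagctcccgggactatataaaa
Ckm, chr7:19410844-19411093, plus strand: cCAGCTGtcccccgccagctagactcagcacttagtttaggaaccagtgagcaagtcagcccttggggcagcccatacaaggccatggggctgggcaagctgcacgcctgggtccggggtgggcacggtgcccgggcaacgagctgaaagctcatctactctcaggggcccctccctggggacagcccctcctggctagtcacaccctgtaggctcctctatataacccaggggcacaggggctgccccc
Myh1, chr11:67199852-67200101, plus strand: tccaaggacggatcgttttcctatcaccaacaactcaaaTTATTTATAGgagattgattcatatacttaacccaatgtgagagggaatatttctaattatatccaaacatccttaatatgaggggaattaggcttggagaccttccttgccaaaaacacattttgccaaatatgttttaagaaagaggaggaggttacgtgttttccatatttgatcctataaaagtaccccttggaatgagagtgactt
Myh4, chr11:67237562-67237811, plus strand: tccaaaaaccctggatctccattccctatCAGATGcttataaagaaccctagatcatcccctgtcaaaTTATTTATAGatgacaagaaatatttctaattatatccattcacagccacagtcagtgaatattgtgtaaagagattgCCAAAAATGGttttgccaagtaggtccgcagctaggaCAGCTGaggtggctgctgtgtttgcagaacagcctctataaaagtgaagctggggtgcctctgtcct
Myog, chr1:134289754-134290003, plus strand: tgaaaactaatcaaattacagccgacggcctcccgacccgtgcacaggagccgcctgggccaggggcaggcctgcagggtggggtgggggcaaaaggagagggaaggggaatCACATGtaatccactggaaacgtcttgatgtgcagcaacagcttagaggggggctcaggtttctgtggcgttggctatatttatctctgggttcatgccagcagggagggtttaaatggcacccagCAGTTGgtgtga
Acta1 had E-boxes at positions -238 and -221 and a CArG box at -73, counted from the transcript start. Ckm had 1 E-box at -249. In Myh1 only a MEF2 site at -211 was found. Myh4 had E-boxes at -221 and -67, a CArG box at -104 and a MEF2 site at -182. Myog had E-boxes at -138 and -12, and the windows of Myh2 and Myf5 held none of these letters. Among 32526 mouse promoter windows of this length, 66.2% held CANNTG, 13.1% the E-box CAGCTG present in Acta1, Ckm and Myh4, 1.48% a CArG box and 2.89% a MEF2 site. A match is a description of the letters only.

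The structural genes were concentrated in a few Myc tumors, most of all in the jaw tumor R26P123. The summed level of the 6 genes was 580.4 TPM in R26P123, 122.6 TPM in the back tumor 43825B, 82.7 TPM in the jaw tumor 43987A, 15.3 TPM in the nose tumor 43990A and 13.2 TPM in the mouth tumor 43998A. In the 6 intracranial Myc tumors it was 77.8 TPM in 43989C and 37.7 TPM in 43992A, then 9.81, 7.62, 2.07 and 0.396 TPM. In the 5 Shh tumors it lay between 0.620 and 3.54 TPM, with a median of 2.5 TPM. Every extracranial tumor was thus above every Shh tumor, whereas the extracranial and intracranial Myc tumors overlapped. Even in R26P123 the 6 genes took 0.0501% of the counts (95% Wilson interval 0.0494 to 0.0509%, counting error only).

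**Figure D1:**
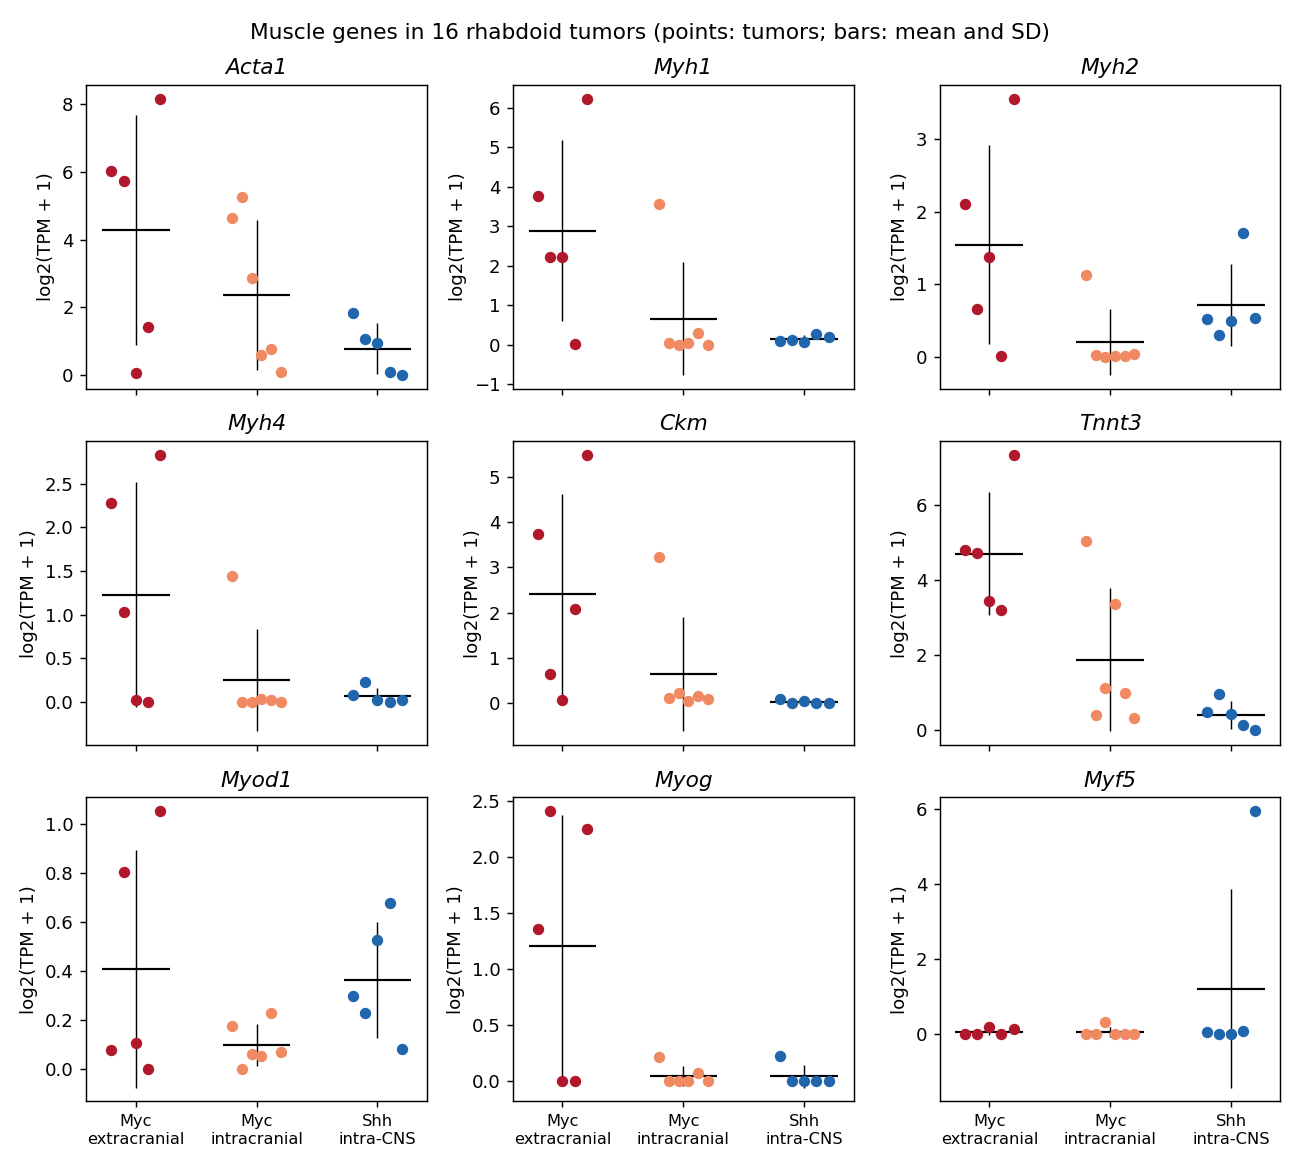
Level of each of the 9 genes, as log2(TPM + 1), in the 5 extracranial Myc (red), 6 intracranial Myc (orange) and 5 Shh (blue) tumors, with 1 point per tumor, a horizontal bar at the mean and a vertical bar of 1 SD. R26P123 is the highest point for all 6 structural genes, 43989C is the high intracranial point for Myh1, Myh2, Myh4 and Ckm, and a single Shh tumor holds the Myf5 signal.

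Acta1 encodes skeletal alpha-actin, the thin filament protein. Its level was 64.1, 51.6, 0.0464, 1.70 and 285 TPM in 43825B, 43987A, 43990A, 43998A and R26P123. In the intracranial Myc tumors it was 23.8 TPM in 43989C, 37.2 TPM in 43992A, 6.27 TPM in 29941C, 0.511 TPM in 29225D, 0.707 TPM in R26P170 and 0.0580 TPM in R26P115. Both groups of Myc tumors thus spread from near the floor to above 30 TPM. The Shh tumors had 2.54, 1.08, 0.918, 0.0705 and 0 TPM, below the 6 highest Myc tumors and level with the rest.

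Acta1 also appeared without its partners. In 43992A it took 98.8% of the structural TPM, with 512 counts of Acta1 against 1 count of Ckm, 2 of Myh1 and 3 of Tnnt3. In 29941C it took 82.3%, with 474 counts against 12 of Ckm and 1 of Myh1. The nose tumor 43990A was the reverse, with 1 count of Acta1 and 303 of Myh1. The same 43992A held the highest level of Chrna1, a subunit of the muscle acetylcholine receptor, at 28.2 TPM.

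Tnnt3 encodes fast skeletal troponin T. It measured 26.7, 25.2, 9.89, 8.25 and 161 TPM in 43825B, 43987A, 43990A, 43998A and R26P123, and it was the only structural gene above 5 TPM in all 5 extracranial tumors. The intracranial Myc tumors gave 31.9 TPM in 43989C, 9.21 TPM in 29225D, 1.17 TPM in 29941C and 0.991, 0.306 and 0.244 TPM in R26P170, 43992A and R26P115. The Shh tumors reached 0.934 TPM at most. In 29225D, Tnnt3 made up 93.9% of the structural TPM with 283 counts, and its neighbour Tnni2, fast troponin I, was at 18.9 TPM. Over the 16 tumors the log2(TPM + 1) of Tnnt3 and Tnni2 had a Pearson r of 0.96 and a Spearman rho of 0.86, while Acta1 and Tnnt3 had 0.71 and 0.61. These are descriptions over tumors that share the high level of R26P123.

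Ckm encodes muscle creatine kinase. It was at 43.5 TPM in R26P123, 12.2 TPM in 43825B, 8.31 TPM in 43989C and 3.24 TPM in 43998A, and at 0.569 TPM or less in the other 12 tumors. The 5 Shh tumors had 2 counts of Ckm between them in 183424487 gene counts, against 1227 in 441054196 in the Myc tumors, which is a ratio per count of 255 (95% counting interval 70.5 to 2109). That ratio rested on few tumors, since R26P123 alone gave 867 of the 1227 counts.

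The adult fast myosins Myh1, Myh2 and Myh4 belong to fibres of types IIX, IIA and IIB. Myh1 was at 73.6 TPM in R26P123, 12.5 TPM in 43825B, 10.8 TPM in 43989C, 3.68 TPM in 43987A and 3.67 TPM in 43990A, and at 0.237 TPM or less in the other 11 tumors. Myh4 reached 6.10, 3.84, 1.73 and 1.04 TPM in R26P123, 43825B, 43989C and 43987A and 0.173 TPM at most elsewhere. Myh2 differed from both in the Shh tumors. It was at 10.8, 3.33, 1.59 and 0.574 TPM in R26P123, 43825B, 43990A and 43987A and at 1.2 TPM in 43989C, but the Shh tumors, at 2.28, 0.455, 0.433, 0.410 and 0.238 TPM, lay above the other 6 Myc tumors, none of which passed 0.0299 TPM.

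The makeup of the myosin heavy chains separated the tumors that had muscle genes. Of the summed TPM of 6 myosin genes, the adult fast genes Myh1, Myh2 and Myh4 held 97.9% in R26P123, 85.3% in 43825B, 98.7% in 43990A and 93.2% in 43989C. In the jaw tumor 43987A they held 33.2%, and the neonatal Myh8 (49.2%) and embryonic Myh3 (17.5%) held most of the rest. That tumor also had 3.69 TPM of Mymk, a gene needed for myoblast fusion, against 0.666 TPM or less in each other tumor. In R26P115 the slow and cardiac gene Myh7 held 99.5% of the myosin TPM, with 882 counts. The Shh tumors had between 1.73 and 23.4 TPM of myosin in all, and Myh8 held 95.1% of it in R26P87. The other 5 Myc tumors had fewer than 100 counts on these genes and were left out. Reads shared between these close paralogs could be split or lost in the counting, so small shares are uncertain.

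**Figure D2:**
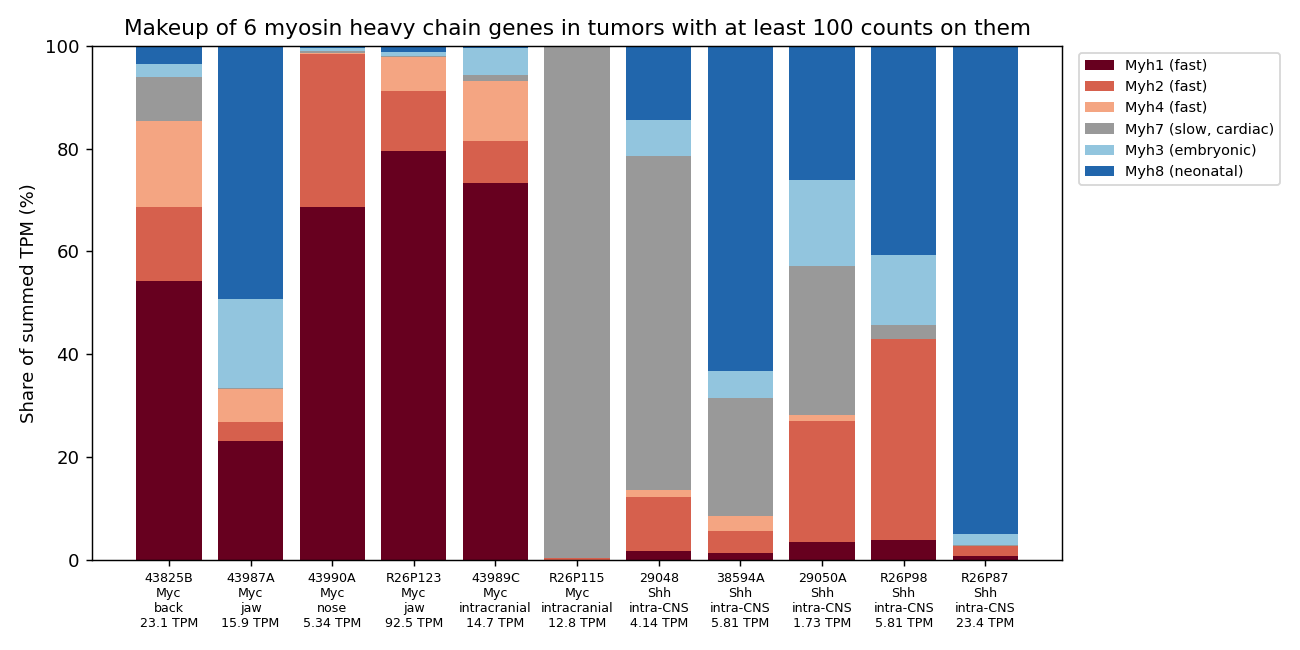
Share (%) of each of 6 myosin heavy chain genes in their summed TPM, for the 11 tumors with at least 100 counts on them, with subgroup, site and summed TPM under each bar. Fast adult genes (red tones) fill 85.3% or more in 4 Myc tumors and 33.2% in the jaw tumor 43987A, where Myh8 and Myh3 (blue tones) hold most of the rest.

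The myogenic factors were low nearly everywhere. Myog, which drives terminal differentiation, was at 4.29 TPM (142 counts) in the jaw tumor 43987A, 3.75 TPM (78 counts) in R26P123 and 1.56 TPM (22 counts) in 43825B. No other tumor had more than 3 counts, and 43990A and 43998A had 0, which at their depth allows up to 0.10 and 0.0951 CPM. Myog thus marked 3 of the 5 extracranial tumors and none of the 6 intracranial Myc tumors. The extracranial tumors had 242 counts of Myog, of which 142 came from 43987A, and the intracranial Myc tumors had 3. Myog was at 0.164 TPM (2 counts) in 43989C, which held 77.8 TPM of structural genes.

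Myod1, a determination factor, was at 1.07 TPM (28 counts) in R26P123 and 0.748 TPM (31 counts) in 43987A. It was at 0.0787 TPM or less in the other extracranial tumors and at 0.171 TPM or less in the intracranial Myc tumors. In the Shh tumors it was at 0.598, 0.442, 0.229, 0.174 and 0.0597 TPM, within the range of the Myc tumors. No tumor therefore held more than a trace of Myod1.

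Myf5, the other determination factor, was a single-tumor signal. The Shh tumor R26P87 had 60.8 TPM (1145 counts), and the other 4 Shh tumors had 0 or 1 count. Among the Myc tumors the highest was 29941C at 0.249 TPM (25 counts), and 8 of the 11 had none. In R26P87 the structural muscle genes summed to 0.620 TPM, the lowest of the Shh tumors. The tumor also held the highest level of Pax3, the progenitor factor that is also a dorsal neural tube gene, at 343 TPM, and of Myh8 at 22.2 TPM, while Myf6 was at 0.530 TPM and Pax7 at 0.

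Structural genes and myogenic factors did not keep a fixed ratio. The sum of the 3 factors, in log2(TPM + 1), had a Pearson r of 0.30 and a Spearman rho of 0.13 with the mean of the 6 structural genes over 16 tumors, and 0.78 and 0.65 over the 11 Myc tumors. Without the 2 tumors farthest from the median, R26P123 and 43825B, Pearson r was 0.0064 and 0.54. The value over 16 tumors moved most with R26P87, to 0.76 without it, and was 0.058 without R26P123. Myog alone had a Pearson r of 0.80 and a Spearman rho of 0.61 over 16 tumors, and 0.57 and 0.39 without the same 2 tumors. The structural sums ran as a graded series from 580.4 TPM downwards, and the values carry no test.

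**Figure D3:**
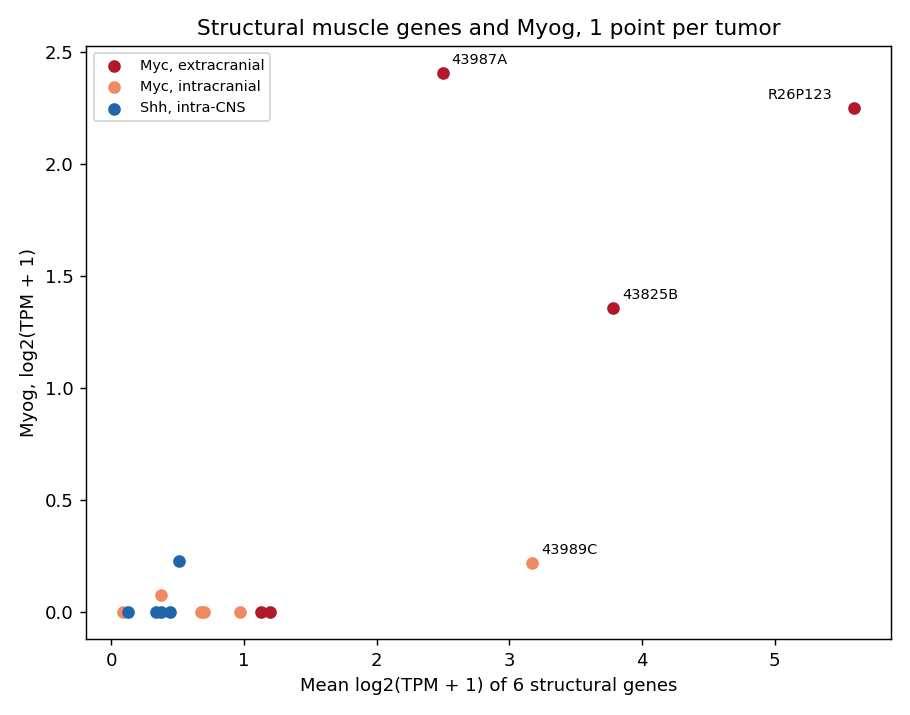
Level of Myog, as log2(TPM + 1), against the mean log2(TPM + 1) of the 6 structural genes in the 16 tumors, coloured by subgroup and site. 43987A, R26P123 and 43825B carry both, whereas 43989C carries structural genes at 77.8 TPM with 2 counts of Myog.

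By site, all 6 structural genes, Myod1 and Myog had lower fitted levels in the intracranial than in the extracranial Myc tumors. The log2 fold change (intracranial minus extracranial, with its standard error) was -2.75 ± 1.66 for Acta1, -3.27 ± 2.03 for Myh1, -3.91 ± 1.79 for Myh2, -2.87 ± 2.05 for Myh4, -2.98 ± 1.74 for Ckm and -2.63 ± 1.29 for Tnnt3. For the myogenic factors it was -5.85 ± 1.80 (Myog), -2.38 ± 1.15 (Myod1) and 0.12 ± 1.31 (Myf5), the last with a sign that turned under other settings. Since this is the contrast for which the genes were listed, these values are a description. Of the 21261 genes fitted in it, edgeR with Benjamini-Hochberg adjustment called 0.00470%, a single gene, DESeq2 called 490, and 12.3% had an unadjusted p under 0.05.

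The size of the difference by site depended on single tumors. Without 43989C the log2 fold change was -8.24 for Myh1, -7.91 for Myh2, -7.90 for Myh4, -6.85 for Ckm and -4.30 for Tnnt3, and without R26P123 it was -1.41, -2.70, -2.08, -1.48 and -1.28. Acta1 went from -2.75 to -1.35 without R26P123 and to -3.64 without 43992A. With 43990A counted as intracranial, the values for the former 5 genes were -3.37, -3.17, -3.41, -3.52 and -2.83. Within the mice with numbered names, the summed structural level had a median of 49.0 TPM in 4 extracranial and 23.8 TPM in 4 intracranial Myc tumors, with ranges of 13.2 to 122.6 and 7.62 to 77.8 TPM. The R26P-named Myc tumors were 1 extracranial (580.4 TPM) and 2 intracranial (0.396 and 2.07 TPM).

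Between the subgroups, 5 of the 9 genes passed the test, 4 structural genes lower and Myf5 higher in the Shh tumors. Over all 21854 genes, edgeR called 26% (12.9% higher and 13.1% lower in Shh), where a call needed an adjusted p below 0.05 and more than a 2-fold difference. At an unadjusted p under 0.05 it was 7 of the 9, beside 44.4% of all genes. The Myc tumors in this comparison are those for which the genes were listed, so the counts are a description of chosen genes. The log2 fold change (Shh minus Myc, edgeR with Benjamini-Hochberg adjusted p) was -6.57 ± 1.70 for Tnnt3 (adjusted p = 0.00745), -8.36 ± 2.34 for Ckm (0.0120), -6.01 ± 2.04 for Acta1 (0.0324) and -6.85 ± 2.39 for Myh1 (0.0365). All 4 were at 2.54 TPM or less in each of the 5 Shh tumors, and their ranges overlapped those of the Myc tumors. Myh4 (-4.90 ± 2.22, edgeR adjusted p = 0.0996), Myog (-4.98 ± 2.21, 0.0925), Myh2 (-1.54 ± 1.63, 0.479) and Myod1 (-0.03 ± 1.0, 0.987) did not pass.

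Ckm and Tnnt3 stayed past the threshold in each of the 16 edgeR fits that left out 1 tumor. Acta1 missed it without 38594A, 29050A, R26P98 or R26P87, with log2 fold changes of -6.06, -6.02, -5.73 and -5.70 and edgeR adjusted p of 0.0657 to 0.0695. Myh1 missed it without any 1 Shh tumor, with log2 fold changes of -7.23 to -6.67, or without R26P123, at -5.28. For Myf5 the log2 fold change was 7.30 ± 1.79 (edgeR adjusted p = 0.00521). It rested on R26P87, without which it was -1.55 ± 1.47 (edgeR adjusted p = 0.445), and with the naming scheme of the mice as covariate it was 3.34 ± 4.13 (0.548). In the tumors induced at E6 alone, Ckm, Myh1 and Tnnt3 passed. The only Myc tumors in that fit were 43825B and R26P170. Counts of Ckm, Myh1 and Tnnt3 were 165, 721 and 285 in 43825B against 2, 18 and 14 in R26P170. Those calls thus rested mostly on 43825B. With limma on log2(TPM + 1), only Tnnt3 passed.

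**Figure D4:**
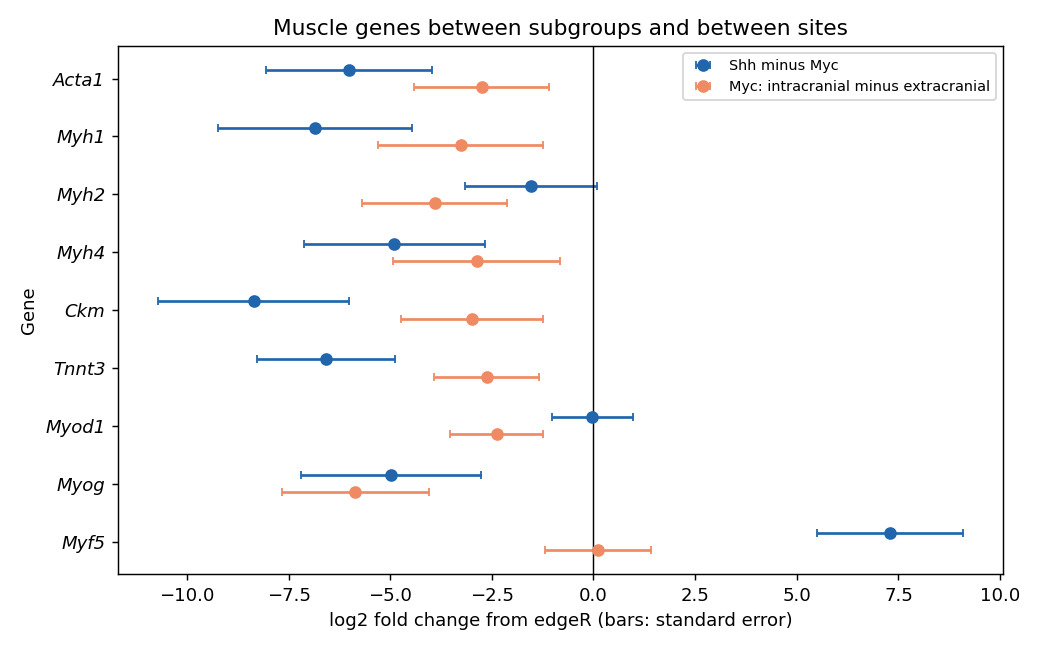
Log2 fold change from edgeR, with 1 standard error to each side, for the 9 genes between Shh and Myc tumors (blue) and between intracranial and extracranial Myc tumors (orange). The values for Ckm, Myh1, Tnnt3 and Acta1 lie between -8.36 and -6.01 for Shh minus Myc, and the values by site, a description without a test, lie left of zero for every gene but Myf5.

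The other genes of mature muscle followed the structural genes in part. Of 28 further genes of the fibre, R26P123 held the highest level for 21 and was among the 4 highest tumors for all 28, 43825B for 22, 43989C for 18, 43987A for 13, and the Shh tumors 29048 and 38594A for 9 and 7. The summed level of the list was 867.3 TPM in R26P123 and next highest in 29048 at 367.2 TPM, where the 6 structural genes summed to 3.54 TPM and Pvalb gave 189.7 TPM, followed by 43989C (218.2 TPM), 43825B (178.4 TPM) and 43987A (173.7 TPM). Between the subgroups, 6 of the 28 were lower in Shh by edgeR (Tnnc2, Tnni2, Actn3, Myoz1, Ampd1 and Mb, of the contractile apparatus, purine metabolism and oxygen storage) and 1 was higher, Pvalb, a calcium-binding protein that is also abundant in interneurons. These 7 of 28 are a share near the 26% of all genes called by edgeR, so the count is no result about the list. The share was above that of all genes with DESeq2 and below it with limma, so it depended on the method. The median log2 fold change of the list was -1.97, beside -0.15 for all genes tested. Eno3, Pvalb and Mylpf had the highest mean levels. Eno3, muscle enolase, reached 159 TPM in R26P123 and 126 TPM in 29225D, Mylpf, a fast myosin light chain, was at 109 TPM in R26P123 and 44.2 TPM in 43987A, and Pvalb stood highest in 29048. By site the median log2 fold change of the list was -2.42, beside 0.02 for all genes, again as a description without a test.

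In the smaller lists the calls by edgeR are given beside the 26% of all genes called (13.1% lower in Shh), and nothing particular to a list is read from them. Of 7 genes of developing fibres, Chrng, a subunit of the fetal acetylcholine receptor, was lower in Shh by edgeR. Myl4, Myh8 and Actc1 led this list, and its summed level was highest in 43987A (41.3 TPM) and R26P87 (23.3 TPM). Among the progenitor and regulator genes, Six4 was lower and Cdh15 and Megf10 were higher in Shh. Mef2d and Mef2a, broadly expressed partners of the myogenic factors, were high throughout, with Mef2a between 29.7 and 93.4 TPM in every tumor. Of 7 slow fibre genes (led by Tnnt1, Tnnc1 and Tnni1), Myh7b was higher in Shh. Of 5 genes of the neuromuscular junction, 3 receptor subunits (Chrna1, Chrnb1 and Chrnd) were lower in Shh, and of 6 regulators of head muscle (Isl1 and Lhx2 among those of highest mean level) none passed and none had an unadjusted p under 0.05.

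Genes of other tissues were also high in some of the tumors with muscle genes. The 7 keratinocyte genes were all highest in R26P123, at 2070 TPM in sum with Krt14 at 599, Krt1 at 519 and Krt10 at 469 TPM, against 3.09 to 5.74 TPM in the other extracranial, 2.33 to 40.1 TPM in the intracranial Myc and 7.35 to 16.9 TPM in the Shh tumors. The salivary gland list summed to 9.22 to 839 TPM in the extracranial tumors. In the intracranial Myc tumors it was 5.01 to 51.3 TPM, and in the Shh tumors 8.45 to 101.8 TPM. In 4 of the 5 extracranial tumors nearly all of it was Aqp5. Of its 6 genes, 1 (Dcpp1) was at 0 in each of the 5. Pip reached 0.0780 TPM there, Bhlha15 0.102 TPM and Smr3a 3.16 TPM at most. Amy1 was at 0.978 to 5.92 TPM in the extracranial tumors, against 7.90 to 101.3 TPM in the Shh tumors. The adipocyte list summed to 48.3 TPM in 43825B, with Cfd at 31.8 and Adipoq at 8.0 TPM, and to 17.6 TPM in 43990A, and to 2.46 TPM or less elsewhere. The tendon list was at 943.7 TPM in 43825B, of which Fmod gave 932 TPM, and at 24.9 to 166.8 TPM in the other extracranial, 4.82 to 158.9 TPM in the intracranial Myc and 5.59 to 34.7 TPM in the Shh tumors. The bone and cartilage list did not go with the structural genes. It summed to 877.0 TPM in 29941C and 519.5 TPM in 43989C, of which Dmp1 gave 875.7 and 511.6 TPM. In the other Myc tumors it was 100.0 TPM or less, and in the Shh tumors 17.7 to 175.1 TPM. Dmp1 reached 5.16 TPM at most in the Shh tumors, while Col2a1 was at 7.66 to 155.5 TPM there. The sums of the 2 subgroups thus rested on different genes. The part of these tissues in the muscle signal was not tested.

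The lists for other muscle types had their highest sums in other tumors, heart muscle in 43990A and smooth muscle in 29225D. In 43990A nearly all of the heart muscle sum was Tnni3, at 73.1 TPM, while Tnnt2, Myh6, Nppa and Myl7 were at 0. Tnni3 was at 8.85 TPM or more in every tumor. The 7 heart muscle genes (led by Tnni3, Tnnt2 and Ryr2) summed to 15.9 to 73.8 TPM in the extracranial, 17.8 to 34.6 TPM in the intracranial Myc and 14.8 to 44.0 TPM in the Shh tumors, and R26P123 was the highest tumor for none of them. The 8 smooth muscle genes (led by Acta2, Smtn and Tagln) summed to 39.7 to 224 TPM, 29.3 to 256.7 TPM and 37.7 to 65.4 TPM, with R26P123 highest for 1. Between the subgroups, edgeR called 1 of the 7 heart genes (Ryr2, higher in Shh) and 2 of the 8 smooth muscle genes (Smtn and Actg2, lower), shares under the 26% of all genes called. The red blood cell list could not be used, since 4 adult haemoglobin genes had 1 count between them in all 16 tumors.

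**Figure D5:**
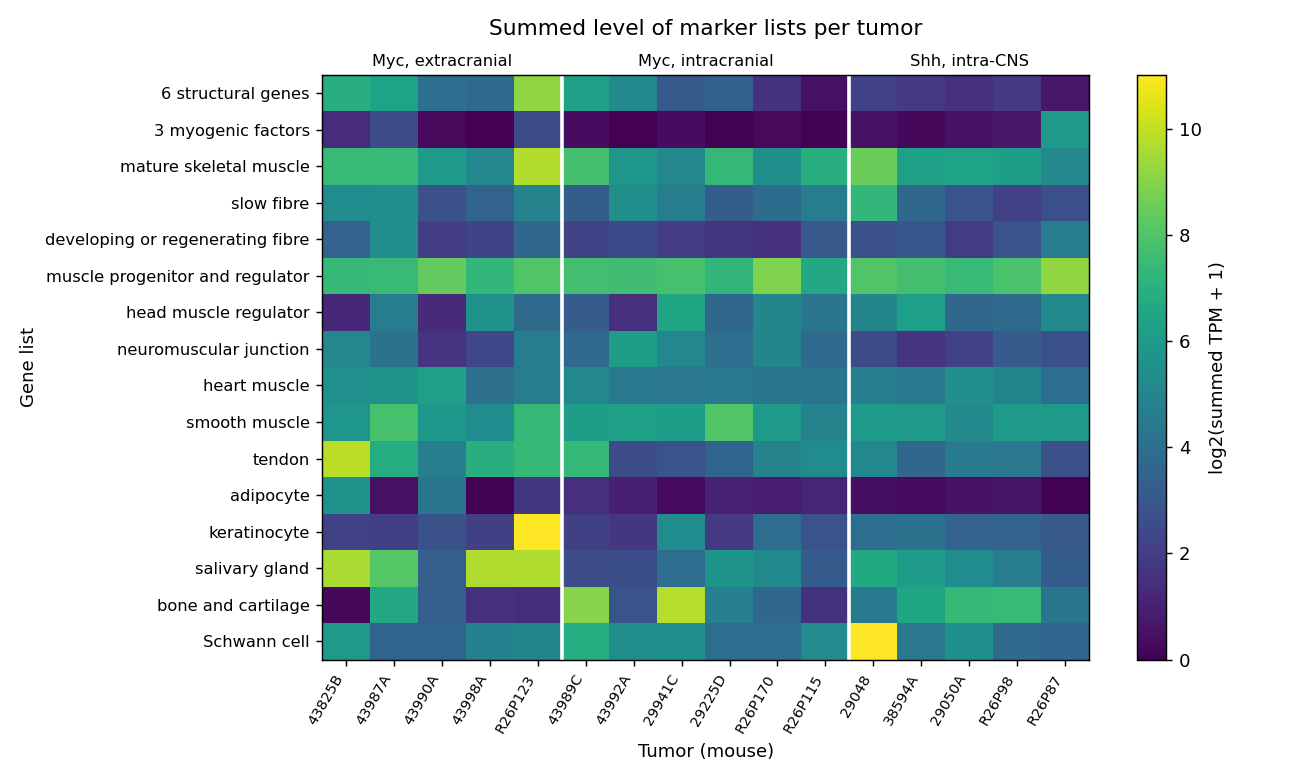
Summed level of 16 gene lists, as log2(summed TPM + 1), in each tumor, with white lines between extracranial Myc, intracranial Myc and Shh tumors. R26P123 is bright for the structural, mature muscle, keratinocyte (2070 TPM) and salivary gland (nearly all Aqp5) lists, and 43825B for the tendon (943.7 TPM) and adipocyte lists.

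Among the 14796 genes whose mean count reached 50, those most like the mean of the 6 structural genes over 16 tumors were Tnnc2 (Pearson r 0.97), Mb (0.93), Neb (0.92), Mylpf (0.91), 5830432E09Rik, Gcnt1, Krt80, Des, Thbs4 and Xirp2 (0.87), and all 10 were highest in R26P123. Spearman rho with the structural mean ran from 0.42 (Mylpf and Des) to 0.84 (5830432E09Rik). Klhl41 (0.96), Mylpf, Myl1, Des and Casq1 were most like Myog. The genes most like Myod1 were Il1a (0.88), Dsg3, Myom3, Klhl41 and Pax1. Each gene named for Myog or Myod1 was also highest in R26P123. For Myod1, Spearman rho was 0.19 with Pax1 and 0.45 with Dsg3, and 0.64 to 0.82 with Klhl41, Il1a and Myom3. Glp1r (0.92), Tfap2e, Hes3, Kat6a and Zfp69 were most like Myf5, and all 5 were highest in R26P87, with Hes3 at 120.9 TPM against 5.03 TPM or less in the other tumors. Spearman rho for Glp1r and Myf5 was -0.05, so that likeness rested on R26P87.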

How the data were processed

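RNA was sequenced from 16 primary rhabdoid tumors with a stranded poly(A) protocol. Per the labels and the submitters' processing notes, the reads were handled with Trim Galore, FastQC, STAR 2.5.3a and Picard on mm10, and the gene annotation is not given in the sources used here. The authors deposited whole-number counts per gene without normalization and TPM values for the same tumors, both without columns of their own comparisons. For gene values with at least 50 counts, the ratio of a gene's count to its TPM, once divided by the median ratio of the tumor, stayed within 5% of the gene's median for 100% of 212141 values. The TPM column headed 29048 was entered under the unit other because its header is a number, and it was deposited in TPM like the rest.

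Groups follow the tumor location in the labels, and each mouse gave 1 tumor. The members and gene lists were chosen with earlier results of these data known. Named genes were the 9 members, the 3 genes of highest mean TPM in each list, the 10 genes most like the structural mean and the 5 most like each myogenic factor, and others were named after their values were seen. Some genes of the lists are not reported here. Counts were fitted in edgeR 4.0.16 (R 4.3.3; TMM, glmQLFit, glmQLFTest), with standard errors taken as the absolute log2 fold change over the square root of F. Genes with 0 counts throughout were removed. Adjustment was Benjamini-Hochberg over all genes. The fit was tested on simulated data with 200 changed genes, drawn from those with a mean count of at least 50. For Shh against Myc (21854 genes) it recovered 48.0% of genes changed 4-fold and 69.0% of those changed 8-fold, with 8 and 5 false calls. By site (21261 genes) it recovered 26.0% and 61.5%, with 0 and 2 false calls. These rates do not cover genes of lower counts, such as Myog and Myod1. Alternatives were DESeq2 1.42.0, limma 3.58.1 on log2(TPM + 1) and log2(TPM + 0.1), DESeq2 size factors, no fold threshold, edgeR's filter on low counts, the naming scheme of mice as covariate, single induction days, 43990A as intracranial, CPM for levels and leaving out each tumor. Positions came from GENCODE release 21 for the mouse, in which 24498 symbols were found. Figures and descriptions used Python 3.11.15 with numpy 2.4.6, pandas 2.3.3, scipy 1.17.1 and matplotlib 3.10.9. Intervals cover counting error only, since reads carry no molecular identifiers.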

Additional observations from a re-analysis of the deposited data

Results flagged for a closer look

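Of 27 sets of values (9 genes in 3 groups), 9 held a tumor whose gap to the nearest other exceeded Dixon's 95% critical value. That value flags about 1 in 20 sets when the values are normal. The sets here hold many zeros, and several genes rise together in 43989C. The genes were also chosen by these values, so the 9 flags are a description and no excess over that rate is read from them. The intracranial Myc tumor 43989C stood above the other 5 of its group for Myh1 (3.56 on the log2(TPM + 1) scale), Ckm (3.22), Myh4 (1.45), Myh2 (1.14) and Myog (0.219, from 2 counts). In the Shh group, R26P98 stood apart for Myh2 at 1.71 (125 counts), 29048 for Myog at 0.229 (3 counts) and R26P87 for Myf5 at 5.95 (1145 counts). The intracranial Myc tumor 29941C stood apart for Myf5 at 0.321 (25 counts). The Myog values are at or under the floor of 3 counts.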

How the results depend on the processing

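No paired analysis was possible because no mouse contributed tumors to more than 1 group. Of the 9 genes, 5 passed between Shh and Myc tumors. The number was 1 with limma at either pseudocount, 3 in the tumors induced at E6 alone, and 2 to 5 when single tumors were left out, and DESeq2 also called 5, with Myh4 in place of Myf5. Over all genes 5689 passed, 3533 with E6 tumors alone and 4766 to 6649 when single tumors were left out. On the log2(TPM + 1) scale limma called 4082 higher and 1324 lower in Shh, beside 2829 and 2860 in edgeR, and the median of all genes was 0.20 (0.35 with TPM + 0.1) in place of -0.15. By site the single call became 490 with DESeq2, 2 with limma on log2(TPM + 0.1), 0 in E8 tumors alone (1665 genes at an unadjusted p under 0.05) and 0 to 3 when single tumors were left out. The r of structural against myogenic genes was 0.30, 0.48 with log2(TPM + 0.1), and 0.058 to 0.76 when single tumors were left out. Directions turned for Myf5, between -1.55 (without R26P87) and 8.21 over single omissions, and for Myh2 (0.58 with limma on log2(TPM + 0.1)). Myod1, near zero at -0.03, became 0.12 and 0.69 with limma, 0.049 with the naming scheme as covariate, 0.80 in E6 tumors and -0.42 to 0.62 over single omissions. The cause was not tested. Of the 28 mature muscle genes 7 passed, beside 5689 of all 21854 genes. With DESeq2 it was 14, beside 6363 of 21854, and with limma 2 and 3, beside 5406 and 6575 of 21841. In E6 tumors it was 4, beside 3533 of 20904, and over single omissions 3 to 9. The share of the list was thus above that of all genes with DESeq2 and below it with limma. With CPM the difference in summed structural level by site moved by less than the spread between tumors. The factors at 0 to 3 counts cannot be ranked at this depth.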
